A study of Mus musculus with 120 samples.

Results

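The nuclear genes of mitochondrial complex I were followed through soleus and heart of 4 mutant mouse strains, at rest and after endurance training. Members were taken by symbol, as every gene in both count tables whose name begins with Nduf, leaving out names that end in -ps. This gave 45 of 53656 genes: 36 subunits of complex I, 7 assembly factors (Ndufaf1 to Ndufaf7), Ndufa4 and Ndufa4l2. Ndufa4 was first described as a complex I subunit and is now counted with complex IV, and Ndufa4l2 is its paralog. All 45 passed the filter on low counts in each tissue. The name Ndufab1-ps was left out by the rule, and Ndufb1 and Ndufaf8 were not analysed here.

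Complex I, the NADH:ubiquinone oxidoreductase, is the largest enzyme of the respiratory chain. It takes electrons from NADH in its NADH module, passes them along iron-sulfur clusters to ubiquinone in its Q module, and uses the energy to pump protons through its membrane arm. The 7 subunits that form the core of the membrane arm are encoded by mitochondrial DNA (mtDNA), and the others are encoded in the nucleus, made in the cytosol and imported. Assembly factors build the modules and join them, and are absent from the finished enzyme. Slow muscle and heart rely on oxidative metabolism and hold much complex I.

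RNA was measured by sequencing of poly(A)-enriched libraries, 48 of soleus and 48 of heart, in 16 groups of 6. Every strain was on the C57BL/6Eij (Nnt+/+) background. ANT1 mice were Slc25a4-/- and lack the adenine nucleotide translocator of heart and muscle, which exchanges ADP and ATP across the inner mitochondrial membrane. ND5 mice carried ND5S204F (mtDNA position 12352) and ND6 mice ND6P25L (position 13997), both in subunits of complex I, and CO1 mice carried CO1V421A (position 6589) in a subunit of complex IV. The labels do not give the share of mtDNA that carries each mutation. From 16 weeks of age, exercised mice ran for 45 min at 50% of maximal capacity, every 2nd day over 8 weeks, and were killed 6 days after the last session, and non-exercised mice were handled only. The unmutated control strain was not analysed here, so ANT1 was compared with the mean of ND5, ND6 and CO1, called the mtDNA strains below. A difference from that mean does not say which side departs from an unmutated mouse.

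Library totals were 10.2 M to 20.7 M counts in soleus and 19.7 M to 26.5 M in heart. In non-exercised soleus, Slc25a4 stood at 10.95 to 22.05 CPM (counts per 1 M counts of a TMM-scaled library) in ANT1 and at 2168 to 3600 in the mtDNA strains, and in heart at 2.24 to 6.12 and 470.4 to 3881. Soleus libraries held slow and fast fibre markers throughout. In heart, the sum of 5 atrium markers ran from 24.74 to 34960 CPM, and only 26 of 48 libraries lay under 1000 CPM. In 1 library labelled non-exercised ND5 heart the sums were 4491 CPM for 6 ventricular markers and 79240 CPM for 4 red cell markers, and the same mouse code is labelled exercised in soleus, so its arm is in doubt. In bulk tissue, fewer cells of a type and less RNA per cell cannot be told apart.

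The 45 genes lie on 16 chromosomes in the mm10 annotation (GENCODE M21). Exons of 3 (Ndufb9, Ndufb8 and Ndufb2) overlap another gene on the same strand and exons of 17 overlap a gene on the other strand. Strand-specific counting is not stated, so counts of these are uncertain. Ndufa13 and Ndufb7 share chromosome 8 with the deleted Slc25a4, at 23.7 and 37.4 Mb from it.

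A RefSeq promoter window (GRCm38.p6, 250 bases before a start) was found for 39 members, 41 windows in all. Their median GC content was 58%, and 52.4% over all 32851 windows. These short motifs were searched on both strands. The core of nuclear respiratory factor 1, a regulator of respiratory chain genes, GCGCANGC, matched in 10 of 41 windows (24.4%), and in 8.3% of all windows. The GC box GGGCGG matched in 43.9% against 32.7%, the ETS core CCGGAAG in 9.8% against 6.9%, the oestrogen-related receptor element AAGGTCA in 7.3% against 4.1%, CCAAT in 31.7% against 33.8%, and the YY1 core AAGATGGC in 0.0% against 1.6%. A match is a run of letters and not a shown binding site, and no match says only that these letters are not in the window.

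For 3 genes the window is shown, 5′ to 3′ on the strand of the gene, because their genes stand at the ends of the soleus result below: Ndufs8 (chr19:3912775-3913024, minus strand) and Ndufa11 (chr17:56717512-56717761, plus strand) differed most clearly between strains, and Ndufb3 (chr1:58586147-58586396, plus strand) least clearly of the distal membrane arm. Capitals mark CCAAT in Ndufs8, overlapping matches to GCGCANGC in Ndufa11, and ATTGG, which is CCAAT on the other strand, in Ndufb3. The last bases of the Ndufb3 window lie within the gene as GENCODE draws it.
Ndufs8: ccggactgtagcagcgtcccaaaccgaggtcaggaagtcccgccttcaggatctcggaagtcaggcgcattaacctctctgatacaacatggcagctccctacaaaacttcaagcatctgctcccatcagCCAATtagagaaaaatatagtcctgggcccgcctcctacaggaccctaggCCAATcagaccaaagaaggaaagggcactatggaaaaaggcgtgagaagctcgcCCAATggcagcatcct
Ndufa11: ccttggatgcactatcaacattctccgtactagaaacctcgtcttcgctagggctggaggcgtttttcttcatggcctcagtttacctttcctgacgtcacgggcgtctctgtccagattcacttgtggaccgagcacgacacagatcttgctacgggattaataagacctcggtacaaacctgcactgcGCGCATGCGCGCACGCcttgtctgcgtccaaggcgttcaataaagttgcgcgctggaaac
Ndufb3: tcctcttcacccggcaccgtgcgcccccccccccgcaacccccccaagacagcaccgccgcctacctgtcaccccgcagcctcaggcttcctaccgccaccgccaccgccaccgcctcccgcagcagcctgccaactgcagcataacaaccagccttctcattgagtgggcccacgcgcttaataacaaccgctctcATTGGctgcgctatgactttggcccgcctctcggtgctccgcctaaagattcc
The first bases of the 3 matches of Ndufs8 lie 120, 70 and 16 bases before its start.

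Levels between genes were compared only per transcript length, by the deposited FPKM (fragments per kilobase, scaled to library depth). In soleus of the 18 non-exercised mtDNA-strain mice the 36 subunits had a median of 358 FPKM, and the 7 assembly factors one of 20.2, so that subunit mRNA stood 17.7-fold above assembly factor mRNA. In heart the ratio was 21.9. Ndufb9, of the distal membrane arm, had the highest level of the subunits in both tissues (917 FPKM in soleus, 806 in heart), and Ndufa11, a membrane arm subunit, the lowest (46.8 and 50.5). Ndufb4 (92.8 FPKM) and Ndufs8 (144) came next above Ndufa11 in soleus, 84 and 145 in heart. By place in the enzyme, median levels in soleus were 337 FPKM for the NADH module, 340 for the Q module, 320 for the proximal and 495 for the distal membrane arm. Ndufaf1, a core assembly factor, led its class with 43.9 FPKM in soleus, and Ndufaf7, a methyltransferase, closed it with 8.57. Ndufa4 stood above every subunit (1500 FPKM in soleus, 1650 in heart), and Ndufa4l2 below every one (6.02 and 13). Over the 36 subunits the order of levels in soleus and heart had a Spearman rho of 0.889, as a description across genes that share libraries and lengths.

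**Figure D1:**
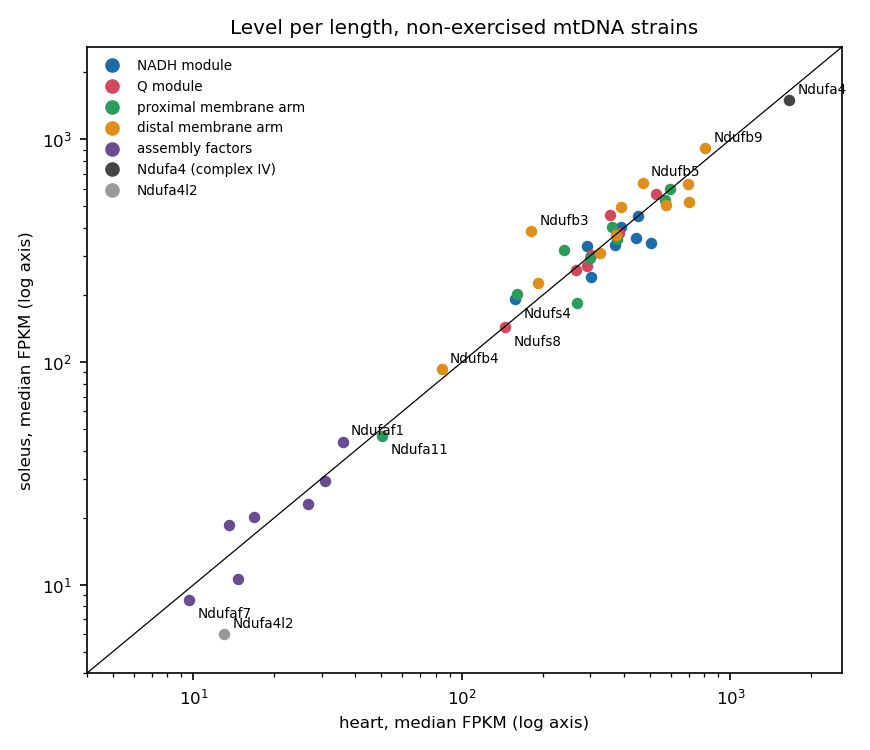
Median FPKM of 44 of the 45 genes in non-exercised mtDNA-strain mice (18 libraries a tissue), heart on the x axis and soleus on the y axis, both log axes, with the line of equal level. Subunits lie between 46.8 and 917 FPKM in soleus, apart from the assembly factors at 8.57 to 43.9, and Ndufb3 lies farthest above the line among the subunits.

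The first comparison asked whether loss of ANT1 goes with another level of complex I mRNA in soleus. Under TMM scaling, 44 of 45 members were higher in non-exercised ANT1 soleus than in the mtDNA strains (edgeR quasi-likelihood test, adjusted p under 0.05), against 22.4% of 13935 genes called higher; with the total count of a library as its only scale 27 were higher (2.74% of genes) and 7 lower (83% of genes). The median difference of the members was 0.82 on the log2 scale and that of all genes -0.04 with TMM, and 0.16 and -0.69 with total counts. With total counts of nuclear genes as the scale, 42 were higher (10.3% of genes), with medians of 0.59 for the members and -0.27 for all genes. Relative to the median gene, the members' median was higher under each of the 3 scales. A change of scale shifts all genes of a library alike, so this gap was bound to stay and is not 3 separate checks.

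The share of mtDNA transcripts, which enters each scale differently, also differed: they took 35.81 to 47.59% of counts in non-exercised ANT1 soleus and 12.87 to 23.02% in the mtDNA strains, with no overlap. The deposited FPKM, which are relative to the whole library, follow the total counts: the subunit median was 404 FPKM in ANT1 and 358 in the mtDNA strains, and the assembly factor median 19 and 20.2. Differences below are under TMM unless another scale is named. Among the genes called lower under total counts were Ndufa4l2, Ndufs1, Ndufaf4, Ndufaf7, Ndufb3 and Ndufa7.

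**Figure D2:**
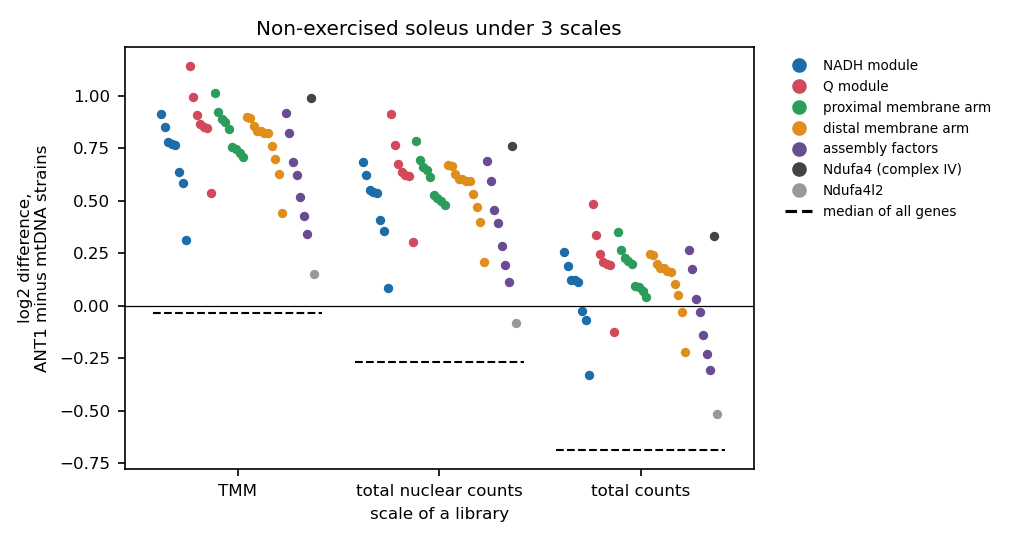
Log2 difference of 44 of the 45 genes, non-exercised ANT1 soleus minus the mean of the mtDNA strains, under 3 library scales; colours give the role of the gene and dashed lines the median of all 13935 genes. The members' median falls from 0.82 (TMM) to 0.59 (total nuclear counts) and 0.16 (total counts), where 7 of the 45 are called lower, and the median of all genes from -0.04 to -0.27 and -0.69.

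In the NADH module, which binds NADH and flavin, 8 of 8 subunits were higher with TMM (median 0.77), and Ndufs1 turned lower under total counts (-0.33). Ndufv2, an iron-sulfur subunit, stood at 516.6 to 615.5 CPM in the 6 ANT1 mice (median 545.9) and at 272.3 to 366.7 in the 18 mtDNA-strain mice (median 328.1). The groups did not overlap. Its log2 difference was 0.77 ± 0.05 (SE), with an adjusted p of 7.57e-16 by edgeR. Ndufa12, an accessory subunit at the junction with the Q module, ran from 166.8 to 227.3 CPM (median 190) against 95.23 to 124.8 (median 111.8), again apart, a difference of 0.78 ± 0.06. Ndufs1, the largest iron-sulfur subunit, differed least, at 535.6 to 653 CPM (median 602.9) against 351.9 to 540.9 (median 502.2). Its groups overlapped, and its difference was 0.31 ± 0.07 (edgeR adjusted p = 0.00022).

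In the Q module, where ubiquinone is reduced, 8 of 8 were higher (median 0.86), with Ndufa7 among those called lower under total counts. Ndufs8, which carries 2 of the iron-sulfur clusters near ubiquinone, showed the largest difference of the 45. It stood at 172.5 to 231.7 CPM (median 194.3) in ANT1 and at 68.08 to 103.7 (median 90.81) in the mtDNA strains, so every ANT1 mouse lay above every other mouse. The difference was 1.14 ± 0.07 (edgeR adjusted p = 2.3e-17), and 0.49 under total counts. Ndufs7, which holds the last cluster before ubiquinone, stood at 280.5 to 382.4 CPM (median 325.3) against 132.7 to 190.2 (median 165.2), a difference of 0.996 ± 0.069. Ndufa7, an accessory subunit, was nearer, at 82.33 to 115.9 CPM (median 97.24) against 59.21 to 75 (median 68.11), a difference of 0.54 ± 0.06 that became -0.12 under total counts (edgeR adjusted p = 0.0488).

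In the proximal membrane arm, next to the Q module, 9 of 9 were higher (median 0.84), none of them called lower under total counts. Ndufa11, which holds the membrane arm together, stood at 171.1 to 244.8 CPM (median 199.2) in ANT1 and at 81.65 to 119.8 (median 100.4) in the mtDNA strains. The groups were apart, with a difference of 1.01 ± 0.06 (edgeR adjusted p = 2.1e-17). Ndufa10 stood at 450.8 to 519.4 CPM (median 480.6) against 195.5 to 312.8 (median 274.5), a difference of 0.84 ± 0.06. Ndufa13, also known as GRIM-19, had the widest spread of these 3 in ANT1, 232.4 to 400.3 CPM (median 276.5), against 150.3 to 201.8 (median 179.5), a difference of 0.71 ± 0.08.

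In the distal membrane arm, at the far end of the proton pumps, 11 of 11 were higher (median 0.83), with Ndufb3 called lower under total counts. Ndufab1, the mitochondrial acyl carrier protein, stood at 348.4 to 416 CPM (median 388.6) in ANT1 and at 168.6 to 241.3 (median 209.6) in the mtDNA strains, a difference of 0.90 ± 0.06 (edgeR adjusted p = 4.59e-17). Ndufb8, often used as a protein marker of assembled complex I, stood at 380.7 to 463.2 CPM (median 424.1) against 195.2 to 262.5 (median 222.5), also 0.90 ± 0.06. Both were free of overlap. Ndufb3 differed least, at 193.7 to 294.2 CPM (median 228.8) against 156.2 to 199.6 (median 174.4). Its lowest ANT1 mouse lay within the other group, and its difference was 0.44 ± 0.07, or -0.22 under total counts.

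All 7 Ndufaf assembly factors were higher with TMM (median 0.62), and under total counts Ndufaf4 (-0.31) and Ndufaf7 (-0.23) were called lower while Ndufaf2 (-0.14) and Ndufaf5 (-0.03) lay below 0. Ndufaf1, which acts early on the membrane arm, stood at 64.74 to 75.52 CPM (median 71.57) in ANT1 and at 34.04 to 45.8 (median 40.03) in the mtDNA strains. Its difference of 0.82 ± 0.06 was close to the subunit median of 0.83. Ndufaf6 stood at 15.1 to 18.79 CPM against 6.22 to 12.13, a difference of 0.92 ± 0.10. Ndufaf3, which works on the Q module, stood at 15.22 to 18.06 CPM against 8.95 to 11.81, a difference of 0.69 ± 0.05. Ndufaf5, a hydroxylase of Ndufs7, differed by 0.62 ± 0.07 and Ndufaf2, which joins late in assembly, by 0.52 ± 0.09. Ndufaf7 differed by 0.43 ± 0.06. Ndufaf4, the partner of Ndufaf3, was the least, at 42.55 to 62.08 CPM against 31.7 to 56.34 with overlap, a difference of 0.34 ± 0.09 (edgeR adjusted p = 0.00201).

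Ndufa4 stood at 770.6 to 1111 CPM (median 919.6) in ANT1 and at 360.4 to 541.5 (median 456.3) in the mtDNA strains, a difference of 0.99 ± 0.07 and in the range of the complex I subunits. Ndufa4l2, a gene known for its induction in low oxygen, stood at 2.47 to 5.40 CPM against 2.23 to 3.94. It was the member that did not pass the test (0.15 ± 0.15, edgeR adjusted p = 0.434), and it was lower under total counts (-0.52, adjusted p = 0.00263). Counting non-overlap, 41 of 45 members had every non-exercised ANT1 library above every mtDNA-strain library, against 6.62% of all genes, the others being Ndufa4l2, Ndufaf4, Ndufb3 and Ndufs1.

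The 7 mtDNA-encoded subunits were all higher in ANT1 with TMM, by 1.51 (mt-Nd6) to 1.88 (mt-Nd1), more than any nuclear member, and by 0.85 to 1.21 under total counts. As an example, mt-Nd1 stood at 42360 to 72760 CPM in ANT1 and at 8402 to 18270 in the mtDNA strains. Libraries were enriched for poly(A), so these values concern polyadenylated mitochondrial RNA. Of 13 listed assembly factors under other names, 10 were tested and 9 were higher with TMM (median 0.51). Nubpl, which delivers iron-sulfur clusters to the enzyme, led with 1.02 ± 0.08, and Lyrm2 did not pass (0.13 ± 0.10). Under total counts Nubpl was still called higher (0.37). Acad9 (-0.45), Tmem186 (-0.45), Lyrm2 (-0.52), Tmem126b (-0.27) and Ecsit (-0.14) were called lower. Foxred1 (-0.14), Timmdc1 (-0.12), Tmem126a (-0.01) and Tmem70 (0.01) were not called under that scale.

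The exercised mice are other animals. In their soleus, 43 of 45 members were higher in ANT1 with TMM (21.1% of genes), and with total counts 20 were higher (2.93% of genes) and 9 lower (77.9% of genes), among them Ndufa4l2 (-0.39), Ndufaf4 (-0.39) and Ndufs1 (-0.31). With total nuclear counts 42 were higher (11.2% of genes). Medians were 0.66 for the members and -0.02 for all genes with TMM, and 0.10 and -0.57 with total counts. All 36 subunits passed under TMM (median 0.67), and so did 6 of 7 Ndufaf genes (median 0.53). Ndufaf4 (0.15 ± 0.09, edgeR adjusted p = 0.188) and Ndufa4l2 (0.17 ± 0.15, adjusted p = 0.385) did not. Ndufs8 stood at 158.4 to 229.7 CPM (median 175.2) in ANT1 and at 78.73 to 124.8 (median 96.25) in the mtDNA strains, a difference of 0.93 ± 0.07. Non-overlap held for 29 of 45 members (5.19% of genes). The mtDNA-encoded subunits were higher by 1.28 (mt-Nd4l) to 1.63 (mt-Nd1).

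Matrix fibroblast markers moved with the same comparison: their sum was 376 to 860.8 CPM in non-exercised ANT1 soleus and 584 to 5432 in the mtDNA strains, with none of the 8 markers at 0. With that score as a covariate 42 of 45 members were higher at rest (16.4% of genes) and 42 after exercise (16% of genes), with TMM. Among libraries under 2000 CPM of these markers 44 (20.3% of genes) and 43 (21.2% of genes) were higher. Slow fibre markers summed to 12210 to 17850 CPM in ANT1 and 14870 to 26350 in the mtDNA strains, fast fibre markers to 33400 to 44120 and 29490 to 45000. With the fast fibre score as a covariate 44 (15.8% of genes) and 42 (14.6% of genes) were higher. Other marker sums moved with the comparison too, and their part in the result was not tested. In non-exercised soleus the atrium list, which holds Sln, a gene also expressed in skeletal muscle, stood at 9.76 to 20.41 CPM in ANT1 and 49.72 to 621.9 in the mtDNA strains. Its members Myl7 and Bmp10 were each at 0 in 47 of 48 soleus libraries. Tendon markers stood at 33.09 to 72.35 CPM against 56.81 to 534.3, and macrophage markers at 26.72 to 66.54 against 24.45 to 254.8. Brown adipocyte markers stood at 11.49 to 15.78 CPM against 5.52 to 8.09, nearly all of it Cidea, with Ucp1 at 0 in 47 of 48 libraries, and red cell markers at 181.6 to 438.6 against 111.6 to 296.9.

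**Figure D3:**
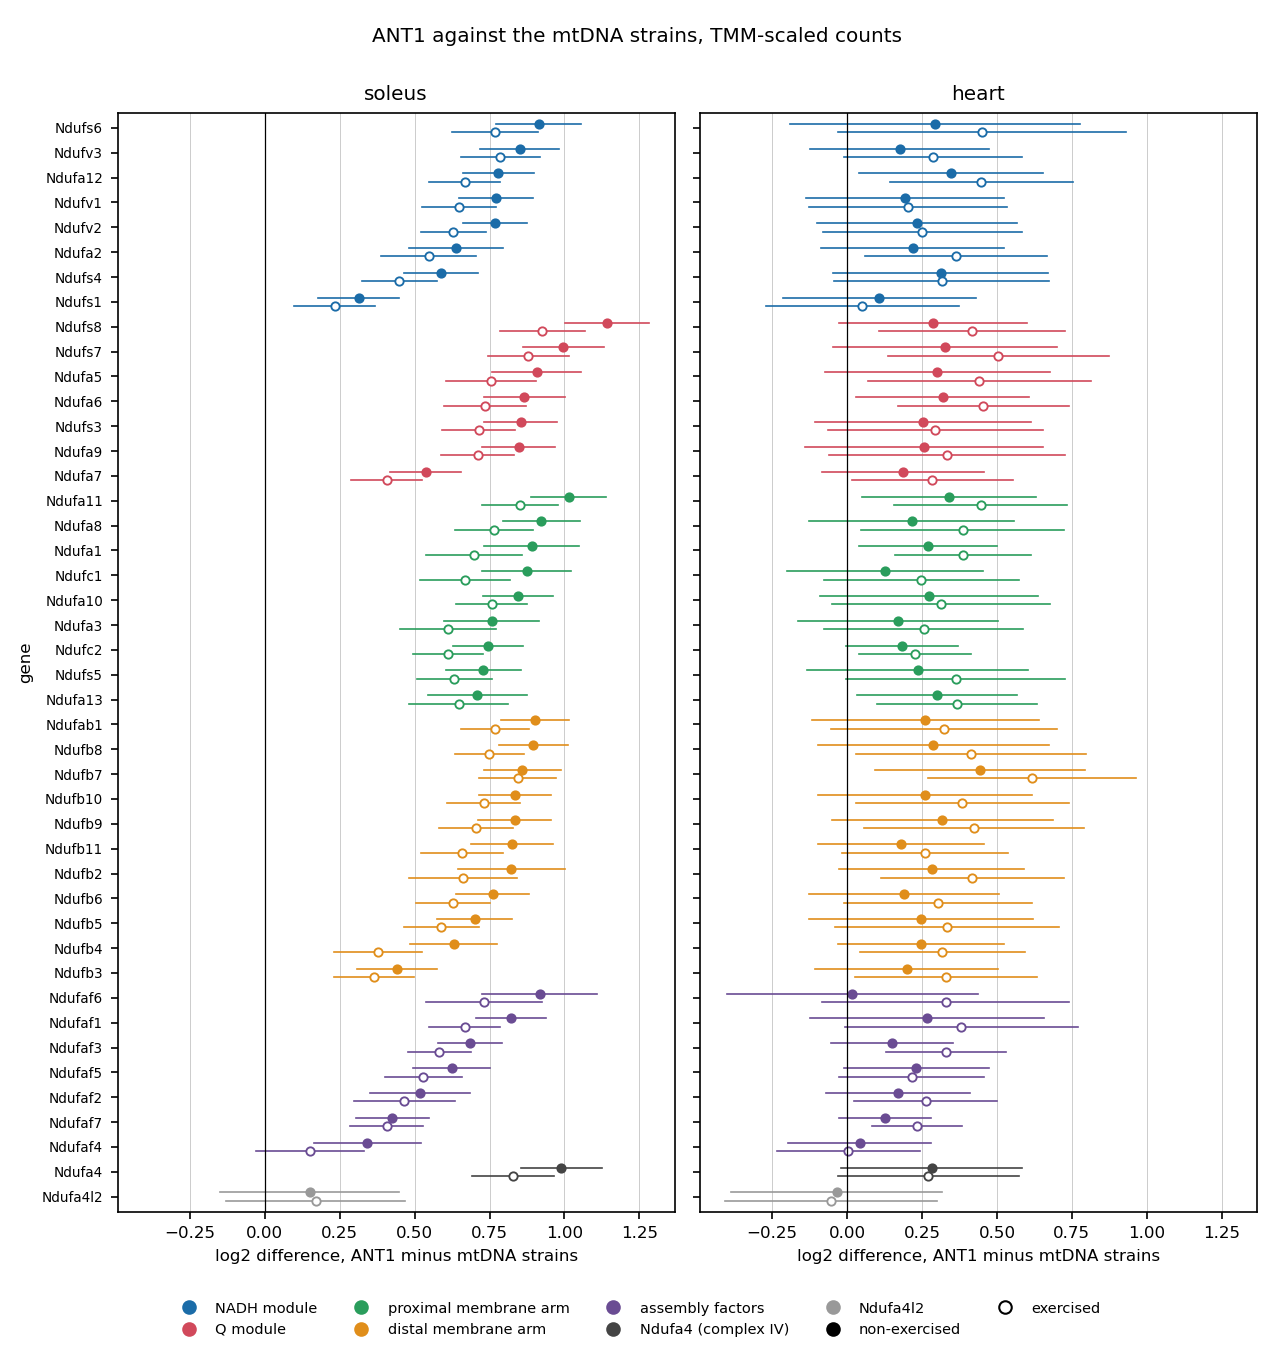
Log2 difference with its 95% interval for 44 of the 45 genes, ANT1 minus the mean of the mtDNA strains, in soleus (left) and heart (right), filled points non-exercised and open points exercised mice, TMM-scaled counts. In soleus the 35 subunits drawn lie above 0 in both arms under this scale (7 members were called lower at rest under total counts), while in heart the interval lies wholly above 0 for 6 genes at rest and 22 after exercise. Colours give the role of the gene.

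In heart the members were spread widely within groups. Under TMM, 0 of 45 were called in non-exercised heart (0.617% of genes higher), with 6 at an unadjusted p under 0.05 (11.6% of genes in either direction) and 0 by DESeq2. The median difference was 0.25, and -0.03 under total counts. In exercised heart 3 were called higher (3.45% of genes), where 22 had an unadjusted p under 0.05 (19.4% of genes in either direction) and DESeq2 called 2; under total counts 0 were higher and 1 lower. Ndufb7, of the distal arm, stood at 106.1 to 232.1 CPM (median 180.1) in exercised ANT1 and at 69.59 to 166.9 (median 116.5) in the mtDNA strains, a difference of 0.62 ± 0.18 (edgeR adjusted p = 0.0333). Ndufa1, a small X-linked subunit needed to anchor the membrane arm, stood at 60.51 to 108.3 CPM (median 76.06) against 49.74 to 78 (median 59.25), a difference of 0.39 ± 0.12 (adjusted p = 0.0428). Ndufaf3 stood at 14.09 to 22.27 CPM against 11.55 to 21.8, a difference of 0.33 ± 0.10 (adjusted p = 0.0492). All 3 overlapped between groups. The count was 0 without any single one of exercised ANT1 replicates 2, 3, 5 and 6, ND5 replicates 2, 3 and 5, CO1 replicate 2 and ND6 replicates 2 to 6, or non-exercised ND5 replicate 6. It was 1 without exercised CO1 replicate 6, non-exercised ND5 replicate 2 or ND6 replicate 1, 5 without exercised ND5 replicate 1 or non-exercised ND5 replicate 5, and 8 without exercised ANT1 replicate 1. For these and all later counts without 1 library the share of all genes called was not recorded. Such counts do not set the members apart from other genes. No member was free of overlap in heart in either arm, against 0.102% of genes at rest and 0.0827% after exercise. The mtDNA-encoded subunits mt-Nd2, mt-Nd3, mt-Nd4 and mt-Nd4l were called higher in both arms under TMM, by 0.93 to 1.05 at rest and 0.76 to 0.94 after exercise. Under total counts they were called too, except mt-Nd4l after exercise (0.44, edgeR adjusted p = 0.0719).

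**Figure D4:**
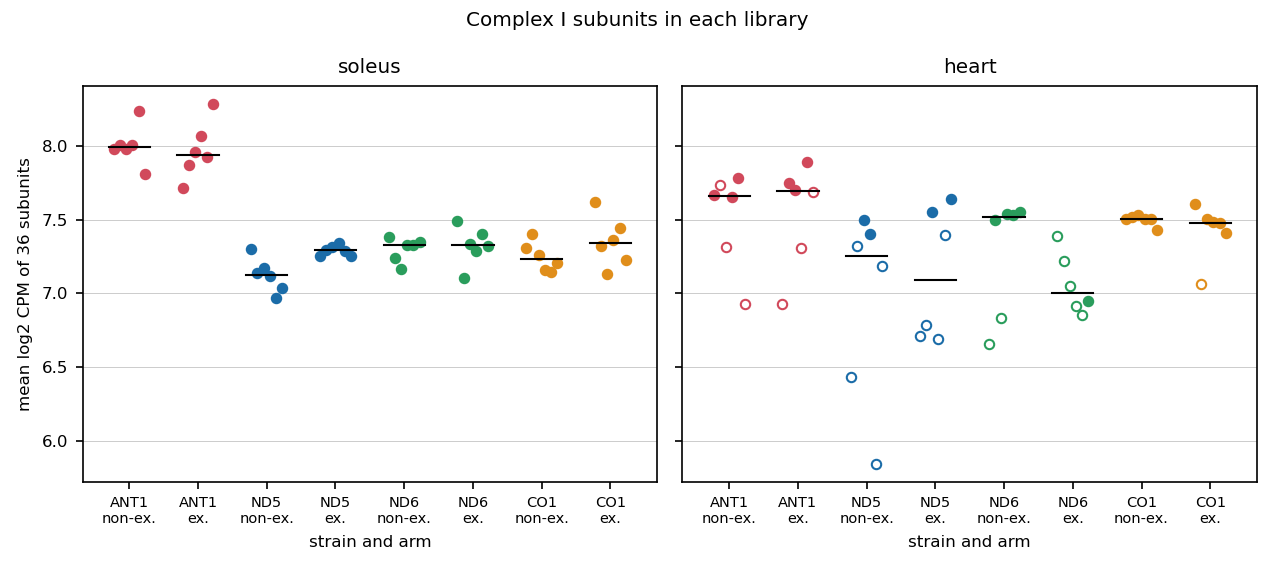
Mean log2 CPM (TMM-scaled) of the 36 subunits in each library, by strain and arm, in soleus (left) and heart (right); bars are medians and open points hearts with 1000 CPM or more of atrium markers. In soleus ANT1 (7.72 to 8.29) lies above the mtDNA strains (6.97 to 7.62) in both arms under this scale, and in heart the range is widest, down to 5.84 in an ND5 library.

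The heart spread moved with atrium markers. Their sum was 66.33 to 20680 CPM in non-exercised ANT1 hearts and 24.74 to 34960 in the mtDNA strains, and 45.32 to 24240 and 42.57 to 27700 after exercise; of the 5 markers, Sln was at 0 in 1 library and no other in any. Of the 26 hearts under 1000 CPM, 3 were ANT1 in each arm, 6 and 5 CO1, 2 and 2 ND5, and 4 and 1 ND6. Choosing these hearts was decided after the data were seen. Among them, the subunit mean at rest was 7.66 to 7.79 log2 CPM in 3 ANT1 mice and 7.40 to 7.55 in 12 mtDNA-strain mice, with no overlap. There 11 of 45 members were higher in ANT1 at rest under TMM (3.02% of genes), median 0.16, among them Ndufb7 (161 to 184.4 CPM against 124.8 to 143.5, a difference of 0.34 ± 0.07, edgeR adjusted p = 0.00701), Ndufa6, Ndufb9 and Ndufb2. In 21 of 45 every ANT1 library lay above every other (3.56% of genes, 3 against 12 mice). With the atrial score as a covariate over all hearts, 8 were higher at rest (4.73% of genes) and 11 after exercise (6.3% of genes).

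After exercise, the low-atrium hearts gave 40 of 45 members higher in ANT1 under TMM (10.1% of genes), median 0.37, and 25 of 45 without overlap (6.89% of genes, 3 against 8 mice). One of the 8, the only exercised ND6 heart among them, held 71100 CPM of red cell markers and 28810 CPM of ventricular markers, where the other 7 held 531.6 to 3300 and 47770 to 58100, and its subunit mean was 6.95 against 7.41 to 7.64. Without it the count was 19 of 45 (4.91% of genes) and the median 0.19, against ND5 and CO1 alone. Ndufb7 (0.47 ± 0.08), Ndufs7 (0.34 ± 0.06), Ndufb2 (0.36 ± 0.07) and Ndufs8 (0.30 ± 0.06) had the smallest p there.

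**Figure D5:**
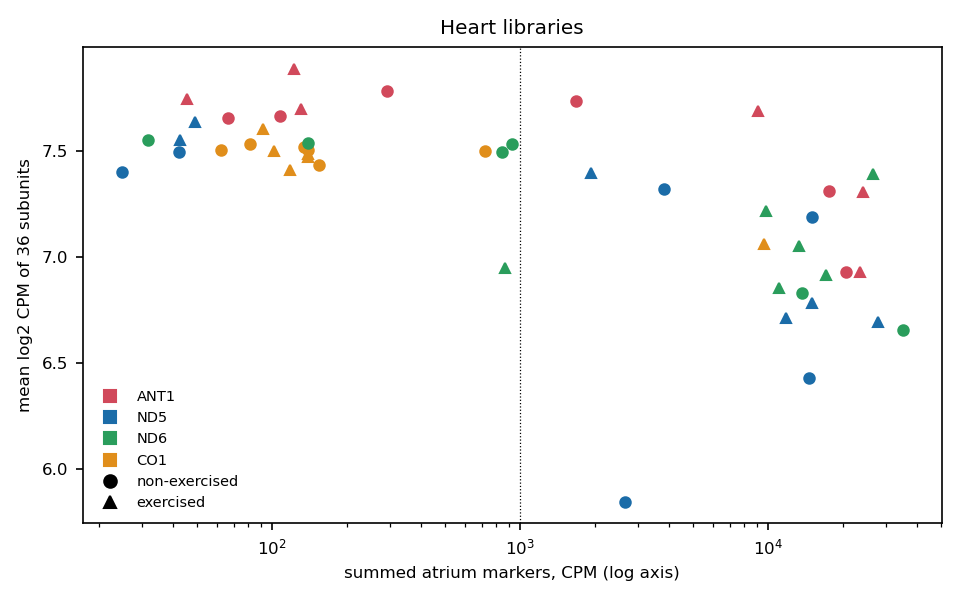
Mean log2 CPM (TMM-scaled) of the 36 subunits against summed atrium markers (log axis) in each of 48 heart libraries, colours for strains, circles for non-exercised and triangles for exercised mice; the dotted line is 1000 CPM. To its left libraries lie between 7.40 and 7.89, apart from 1 exercised ND6 library at 6.95, and to its right they reach down to 5.84.

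Whether the difference of ANT1 was larger in soleus than in heart was tested by an interaction over both tissues at rest. It was larger in soleus for 26 of 45 members under TMM (5.16% of genes), median 0.58, and for 0 smaller. Ndufc2 (0.59 ± 0.12, edgeR adjusted p = 0.00023), Ndufs8 (0.88 ± 0.18, adjusted p = 0.000491), Ndufaf3 (0.56 ± 0.12, adjusted p = 0.000702) and Ndufa1 (0.65 ± 0.15, adjusted p = 0.00174) had the smallest p. With the mouse as a replicate block (limma voom), 17 were larger (4.09% of genes), and with total counts as the scale 7 (1.25% of genes). Among hearts under 1000 CPM of atrium markers and soleus libraries under 2000 CPM of matrix markers it was 40 (7.45% of genes). The count was 11 without non-exercised ANT1 heart replicate 6, 15 without ANT1 heart replicate 3, 17 without ANT1 soleus replicate 4 and 38 without ND5 heart replicate 5, the library poor in ventricular markers whose mouse code is labelled exercised in soleus. No share of all genes was recorded for these fits without 1 library.

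Between the tissues of the mtDNA strains, levels of members went both ways. Soleus was higher for 24 of 45 (39.2% of genes) and lower for 8 (45.6% of genes) under TMM, median 0.16, but higher for 13 (27.4% of genes) and lower for 18 (57.1% of genes) with total nuclear counts. Ndufb3 was higher in soleus by 1.27 ± 0.06, at 156.2 to 199.6 CPM in non-exercised mtDNA-strain soleus (median 174.4) and 45.84 to 105.4 in heart (median 96.89), with no overlap. Ndufc2 was higher by 0.54 ± 0.04, Ndufaf5 by 0.57 ± 0.05 and Ndufs4, which stabilises the NADH module, by 0.59 ± 0.07. On the other side, Ndufa4l2 was lower in soleus (-1.15 ± 0.08), at 2.23 to 3.94 CPM against 3.64 to 11.88. Ndufaf3 (-0.33 ± 0.04), Ndufa10 (-0.30 ± 0.07) and Ndufab1 (-0.26 ± 0.07) were lower too. Within ANT1, soleus was higher for 39 members (35.1% of genes) and lower for Ndufa4l2 alone (40.6% of genes). These tissue values rest on tables of counts with different depth, and 24 and 8 became 16 (38.1% of genes) and 12 (41.3% of genes) among the hearts low in atrium and soleus low in matrix markers.

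The mtDNA strains were then compared pairwise, since ND5 and ND6 change complex I itself and CO1 complex IV. In non-exercised soleus, 10 of 45 members were lower in ND5 than in ND6 under TMM (4.51% of genes), all subunits, with a median of -0.17 over the 45. Ndufb5, of the distal arm, stood at 198.7 to 290.4 CPM (median 248) in ND5 and at 257.1 to 311.4 (median 298.6) in ND6, a difference of -0.26 ± 0.08 (edgeR adjusted p = 0.0277). Ndufa9 (-0.25 ± 0.08), Ndufa11 (-0.26 ± 0.08) and Ndufv1, the flavin subunit (-0.24 ± 0.08), followed, each with overlapping groups, and then Ndufs1, Ndufb2, Ndufb4, Ndufb9, Ndufa10 and Ndufs8. Of the mtDNA-encoded subunits 6 of 7 were lower in ND5 (median -0.65), among them mt-Nd5 (-0.81 ± 0.16). Matrix fibroblast markers were at 1254 to 5432 CPM in ND5 and 584 to 1295 in ND6, and 0 members were called with that score as a covariate, among libraries under 2000 CPM of it, or with either total count as the scale. The ranges barely overlap, so the score and the strain cannot be told apart here. The ND5 median of 3062 CPM lay above the limit and all of ND6 below it, so the restriction left fewer ND5 libraries to test. Without the non-exercised ND5 replicate 5 or 6 or ND6 replicate 5 the count was 0, without ND5 replicate 3 or ND6 replicate 3 it was 1, without ND6 replicate 6 it was 3, and without ND6 replicate 2 or 4 it was 6. It was 16 without exercised ANT1 replicate 6 and 17 without non-exercised ND5 replicate 2. These counts stand without the share of all genes, which was not recorded.

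With all libraries, no member was called in the other soleus pairs. That held for ND5 minus CO1 and ND6 minus CO1 at rest and all 3 pairs after exercise, with 0% of genes called by edgeR in each and 0 members by DESeq2. At an unadjusted p under 0.05, 7 members were lower in ND5 than CO1 at rest (22.1% of genes in either direction). The others had 0 members at that threshold (2.05 to 8.41% of genes). Without non-exercised ND5 replicate 2, however, Ndufa10, Ndufa9, Ndufv1 and Ndufv3 were lower in ND5 than CO1 at rest (edgeR adjusted p = 0.023, 0.0364, 0.032 and 0.0315). The share of all genes was not recorded there. Matrix fibroblast markers stood at 1254 to 5432 CPM in non-exercised ND5 soleus and at 661.7 to 2613 in CO1, and their part in this pair was not tested. In heart no member was called in any pair by edgeR or DESeq2. ND5 minus CO1 at rest had a median of -0.43, 24 members at an unadjusted p under 0.05 (33% of genes in either direction) and a smallest adjusted p of 0.0773, with 11.2% of genes called. Without ND5 non-exercised replicate 1 there were 13 members called, and without replicate 4 there were 5, with the share of all genes not recorded. Those replicates were the only non-exercised ND5 hearts under 1000 CPM of atrium markers, whereas every non-exercised CO1 heart lay under that limit. Atrium content thus differed along with strain in this pair, and its part was not tested. ND6 minus CO1 after exercise had a median of -0.35, 11 members at an unadjusted p under 0.05 (25% of genes in either direction) and 0.566% of genes called. Atrium content differed here too: every exercised CO1 heart but replicate 2 lay under the limit, and of exercised ND6 only the red-cell-rich library did. The other 4 heart pairs had 0% of genes called and 0 members at an unadjusted p under 0.05 (3.54 to 13.8% of genes in either direction).

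Training was tested within each strain, exercised minus non-exercised. In soleus 0 of 45 members were called in any strain or on average over strains, where 0% of 13935 genes were called by edgeR, and 0 members by DESeq2. The members' median difference was 0.17 in ND5, 0.11 in CO1, 0.02 in ND6, -0.03 in ANT1 and 0.07 on average. Matrix fibroblast markers stood at 1254 to 5432 CPM in non-exercised ND5 soleus and at 675.3 to 2878 in exercised ND5 soleus. Their part in the ND5 difference was not tested. At an unadjusted p under 0.05 there were 22 members in ND5, all higher (15% of genes in either direction), and 2 in CO1 (1.92%). There were 0 in ANT1 (2.5%) and ND6 (4.94%), and 8 on average (3.85%), of which Ndufaf3 had the smallest p (0.11 ± 0.03). Without ND5 non-exercised replicate 2, 4 members were called in soleus (Ndufa9, Ndufaf3, Ndufb11 and Ndufb4). The share of all genes called in that fit was not recorded, so the 4 do not set the members apart. The training difference of ANT1 minus that of the mtDNA strains had a median of -0.13, with 0% of genes called and 1 member at an unadjusted p under 0.05 (2.84% of genes). In heart 0 members were called in any of these, by edgeR (0% of genes) or DESeq2, with 0 at an unadjusted p under 0.05 (1.51 to 5.04% of genes). The medians there ran from -0.22 (ND6) over -0.07 (CO1) and 0.05 (ANT1) to 0.12 (ND5). Among low-atrium hearts the exercised side of ND6 was only the 1 red-cell-rich library described above, so training in ND6 could not be tested there. Without that library no exercised ND6 heart was left to compare.

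Exercised soleus samples were labelled responder or non-responder, 3 of each per strain. No member differed between them in any strain or on average by edgeR, where 0% of 13843 genes were called, nor by DESeq2. At an unadjusted p under 0.05 there was 1 member in ANT1 (4.29% of genes), 1 in ND6 (2.76%) and 0 in ND5 (8.98%), CO1 (2.41%) and the average (4.49%). Responders minus non-responders gave medians of 0.12 (ANT1), 0.07 (ND6), 0.04 (ND5) and 0.04 (CO1).

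Within groups the subunits went up and down together from library to library. Over 48 libraries, as deviations from the group means, pairs of the 36 subunits had a median Pearson r of 0.81 in soleus and 0.96 in heart (630 pairs each), a description of genes that share libraries and their scaling. The r of other genes was not computed, so these values do not set the subunits apart. In heart the deviations also hold the spread in atrium and red cell markers described above. In soleus Ndufb9, Ndufs8 and Ndufa6 followed the subunits most closely (median r 0.87, 0.86 and 0.86), and Ndufa4l2 (0.16), Ndufs1 (0.30) and Ndufaf7 (0.32) least. Ndufa4l2 had low counts there, 2.23 to 5.40 CPM in non-exercised mice against 351.9 to 653 for Ndufs1. Count noise was not separated out, so the r of these genes is not on an equal footing. In heart Ndufb5 (0.98) was the closest and Ndufa4l2 (0.72) and Ndufaf4 (0.76) the least close.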

How the data were processed

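RNA of soleus and heart was sequenced as oligo(dT)-selected paired-end libraries, 6 per strain, tissue and arm. The authors deposited RSEM expected counts per gene and FPKM, made against mm10, with STAR 2.5.2b and RSEM 1.2.28 named in the submitters' processing notes. In the expected counts, 24 columns headed by a bare number matched no sample's label and were not used, and the control strain's samples were not analysed here. Expected counts were rounded to whole numbers. Within a tissue, edgeR 4.0.16 (R 4.3.3) fitted 1 mean per group with TMM scaling, after its filter on low counts by group, and quasi-likelihood tests were adjusted by Benjamini-Hochberg over all genes tested (13935 in soleus, 15723 in heart, 13843 for response, 16172 over both tissues). A call is an adjusted p under 0.05. The deposited FPKM served for levels between genes, and their medians over subunits and over assembly factors were also set side by side for ANT1 and the mtDNA strains in soleus. Log2 CPM used a prior count of 2. Of the fits, only that of soleus was run on simulated data, for ANT1 against the mtDNA strains at rest. As many genes were raised as lowered there, so it does not test the choice of scale.

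The members and lists were chosen with earlier results of these data known. Genes named are, for each place in the enzyme, the 2 with the smallest p and the 1 with the largest p in non-exercised ANT1 soleus, all Ndufaf genes, Ndufa4 and Ndufa4l2, and the genes called, or the 4 with the smallest p where more than 5 were called; other names were chosen after their values were seen. Alternatives were RLE factors, no filter, DESeq2 1.42.0, marker scores as covariates, a replicate block in limma 3.58.1 and leaving out each library. Total-count scales and the restrictions on atrium, red cell and matrix markers were chosen after seeing the data. Samples carry separate mouse codes within a tissue, replicates are numbered in accession order, and no 2 libraries of a group held the same values (120 pairs a tissue). Soleus and heart share 19 mouse codes, taken as 1 mouse each, although 1 of them (non-exercised ND5 heart replicate 5) has treatment labels that exclude each other. Over the other 18 the deviations of the 2 tissues from their group means correlated with a median r of 0.064 (-0.296 to 0.326), over 0.1 in 8. Of the members, 1 enters all counts and medians but is not reported here by name or drawn by gene.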

Additional observations from a re-analysis of the deposited data

Results flagged for a closer look

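The subunit mean, the assembly factor mean and Ndufa4l2 were each tested in the 16 groups of 6 libraries for a library far from the rest, 48 tests on shared libraries, and 5 values stood past the 95% limit of Dixon's test. Chance alone gives about 1 in 20. Ndufa4l2 was at 1.09 log2 CPM in 1 exercised ND6 soleus, where the nearest of the others was at 1.72. In heart it was at 3.38 in 1 exercised ND6 library, with the nearest at 2.66. The subunit mean was 7.06 log2 CPM in 1 exercised CO1 heart, with the next at 7.41. In 1 non-exercised CO1 heart the subunit mean was 7.43, with the next at 7.50, and in the same library the assembly factor mean was 4.17, with the next at 4.37.

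The difference of ANT1 from the mtDNA strains passed a test of being larger in soleus than heart for 26 members. Among them were Ndufc2 (0.59 on the log2 scale), Ndufs8 (0.88), Ndufaf3 (0.56) and Ndufa1 (0.65).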

How the results depend on the processing

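Counts of members called in ANT1 soleus were 44 at rest and 43 after exercise without any 1 library, and fell to 27 and 20 higher with total counts as the scale. Of the genes named with values there, under that scale Ndufs1 (-0.33), Ndufa7 (-0.12), Ndufb3 (-0.22), Ndufa4l2 (-0.52), Ndufaf4 (-0.31), Ndufaf5 (-0.027), Ndufaf7 (-0.23) and Ndufaf2 (-0.14) reversed at rest, and after exercise, where Ndufs8, Ndufaf4 and Ndufa4l2 were followed, Ndufaf4 (-0.39) and Ndufa4l2 (-0.39) did. With total nuclear counts Ndufa4l2 at rest (-0.081) and after exercise (-0.0099) and Ndufaf4 after exercise (-0.022) reversed, as did Ndufaf4 after exercise with the matrix score (-0.036) and Ndufa4l2 with the fast fibre score (-0.13 at rest, -0.128 after exercise). For pairs of mtDNA strains in soleus the count of 10 became 4 with no filter, 16 with DESeq2, 1 with the fast fibre score, 0 with either total count, the matrix score or libraries under 2000 CPM of matrix markers, and 0 to 17 without 1 library. In exercised heart the ANT1 count of 3 became 1 with RLE factors or with mtDNA genes left out of library sizes, 0 with no filter or either total count, 11 with the atrial score, 40 in hearts under 1000 CPM of atrium markers, 19 if also under 30000 CPM of red cell markers, and 0 to 8 without 1 library. In non-exercised heart these restrictions gave 11 and 11 and the atrial score 8, and 0 remained without any 1 library. In low-atrium hearts pairs gave 41 and training 40, but exercised ND6 was 1 red-cell-rich library there, too few to test. Both were 0 if also low in red cell markers, where no exercised ND6 heart was left. The 0 counts cover only the remaining contrasts and do not retest those with exercised ND6. Without 1 library pairs in heart gave 0 to 13, training 0 to 4 in soleus and 0 in heart, response 0, and soleus minus heart 30 to 34. The counts in this section are of members only, without the share of all genes called under each setting. They do not set the members apart from other genes. The causes of these changes were not tested. Comparisons with the unmutated strain were not run.

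The larger difference in soleus than in heart held for 26 members, for 14 with no filter, 7 with total counts, 40 in low-atrium hearts with low-matrix soleus and 11 to 38 without 1 library. With the mouse as a replicate block it held for 17. The pairing assumes that a mouse code given in both tissues is 1 mouse, and the block moved the count of soleus minus heart from 24 and 8 to 26 and 7.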
